A study of Mus musculus with 36 samples.

Results

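Lysosome and autophagy genes were followed as a set of 36 named genes in C2C12 myoblasts, an established line of mouse muscle precursor cells. The members were listed by symbol, not chosen by a measured value, because lysosomes lie on the route of particles taken up by cells. Earlier results of these data were known when they were listed. All 36 were found among the 49315 genes of the count files, and all 36 passed the filter on low counts that left 11558 genes for testing. They comprised 5 genes of the lysosomal membrane, 12 of its hydrolases and other lumenal proteins, 4 of the proton pump, the 3 transcription factors of the TFEB family, 6 genes of the autophagy receptor and ATG8 proteins, and 6 of autophagy initiation and conjugation.

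Polyadenylated RNA was sequenced from proliferating cells kept with nanoceria, which are cerium oxide nanoparticles coated with serum and given at 100 µg/ml in a medium reservoir, or without them. The labels name 3 regimes, land, space with gravity and space without it, and each of the 6 groups held 3 separate experiment units. Every group carried the same C2C12 line, the same sealed hardware and the same RNAlater fixation at day 9, so each result describes 1 cell line. The land experiment was a separate run made after the flight, so an effect of flight cannot be told apart from one of the separate runs.

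Of the 18 libraries, 17 held between 2986628 and 11378178 counts, and their members held between 8931 and 47622 counts. The remaining library, replicate 3 of space with gravity and nanoceria, is called the smallest library here: it had 23858 counts in all and 51 in the members, 17 of which were at 0. Levels are given as CPM, which sets every library to 1 shared size after edgeR's TMM scaling, and a count of 3 in the smallest library stood for 35.7 CPM. The 6 most abundant genes (Lars2, Gm23935, Canx, Gm15564, Malat1 and Actb) held 54.3% to 75.7% of counts on land, 44.3% to 69.1% in space without gravity and, without the smallest library, 29.6% to 55.7% in space with gravity. Marker sums are given over those 17 libraries. Myoblast markers summed to 488 to 2115 CPM on land, 1188 to 3228 in space with gravity and 775 to 4527 without it. Of the 8 myoblast markers that could be tested, 7 had estimates below land and 1 above in each space regime, averaged over nanoceria. The sums thus do not stand for the whole myoblast list. The 8 macrophage markers summed to 2.63 to 41.8 CPM on land, 6.22 to 32.9 in space with gravity and 5.52 to 23.4 without it. Of these 8, 4 had any count on land, 6 in space with gravity and 3 without it, and Adgre1 and Itgam were at 0 in all 17. Markers of differentiated muscle summed to 3.84 to 102 CPM on land, 0.659 to 10.7 in space with gravity and 1.60 to 18.9 without it. Endothelial markers reached at most 2.59, 21.2 and 2.49 CPM, in the same order.

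Lysosomes are acidic organelles in which hydrolases break down material that arrives by endocytosis or by autophagy, the enclosure of cytoplasm in a membrane that then fuses with the lysosome. A proton pump, the vacuolar ATPase, acidifies the lumen, and small ubiquitin-like ATG8 proteins are attached to the growing autophagosome. The factors TFEB, TFE3 and MITF bind an E-box in promoters of many such genes, and muscle relies on the pathway to clear glycogen, proteins and organelles.

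That E-box is shown because it is what a part of the members share in sequence. RefSeq promoters on GRCm38.p6, each running from 250 bases before to 50 after a transcript start, were found for 30 of the 36 members. The palindrome CACGTG, which reads alike on both strands, stood in promoters of 11 of those 30 genes (36.7%), against 8.09% of the 27025 genes in the table. The longer TCACGTGA, which contains it, stood in 5 of 30 (16.7%) against 1.12%. The 5 genes with the 8-base form are printed with the motif in capitals and up to 11 bases on either side, ending at the transcript start or, for Atp6v0d1, at the end of the motif that spans it. In order, the stretches lie at chr2:164833749-164833772 on the plus strand, chr7:142387908-142387937 on the minus strand, chr8:3500462-3500491 on the plus strand, chr8:105566061-105566079 on the minus strand and chr16:44139373-44139402 on the minus strand.
Ctsa: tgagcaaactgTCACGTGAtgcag
Ctsd: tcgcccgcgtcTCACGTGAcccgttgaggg
Mcoln1: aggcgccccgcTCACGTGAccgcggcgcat
Atp6v0d1: ccctactgcggTCACGTGA
Atp6v1a: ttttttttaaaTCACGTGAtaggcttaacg
The motif began 13, 99, 46, 4 and 132 bases before a RefSeq transcript start in these 5 genes, again in order. Apart from Atp6v0d1, the printed stretches lie inside the gene spans used for counting, which begin further upstream. None of these 5 passed the adjusted edgeR test with TMM scaling in a comparison described here, though Ctsa passed under 3 alternatives, DESeq2 size factors among them. Of the 6 members that passed the first, 4 had a promoter in the table (Mitf, Cd63, Hexa and Gabarapl2), and no CACGTG was in those windows.

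Levels were compared between members per kilobase of exon, over the 17 libraries. Cd63, a tetraspanin of late endosomes and lysosomes, had the highest median at 281 CPM per kilobase, followed by the autophagy receptor Sqstm1 at 198. The aspartic protease Ctsd stood at 101, the cysteine protease Ctsl at 85.1 and the membrane glycoprotein Lamp1 at 71.4 CPM per kilobase. Ranges of these neighbours overlapped: Ctsd spanned 40.7 to 161 and Ctsl 47.0 to 134 CPM per kilobase. The lowest members were the conjugation enzyme Atg7 at 0.903, the glucuronidase Gusb at 0.609 and Tfeb at 0.0896 CPM per kilobase. Tfeb rested on 0 to 20 counts a library, so its differences had wide errors.

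**Figure D1:**
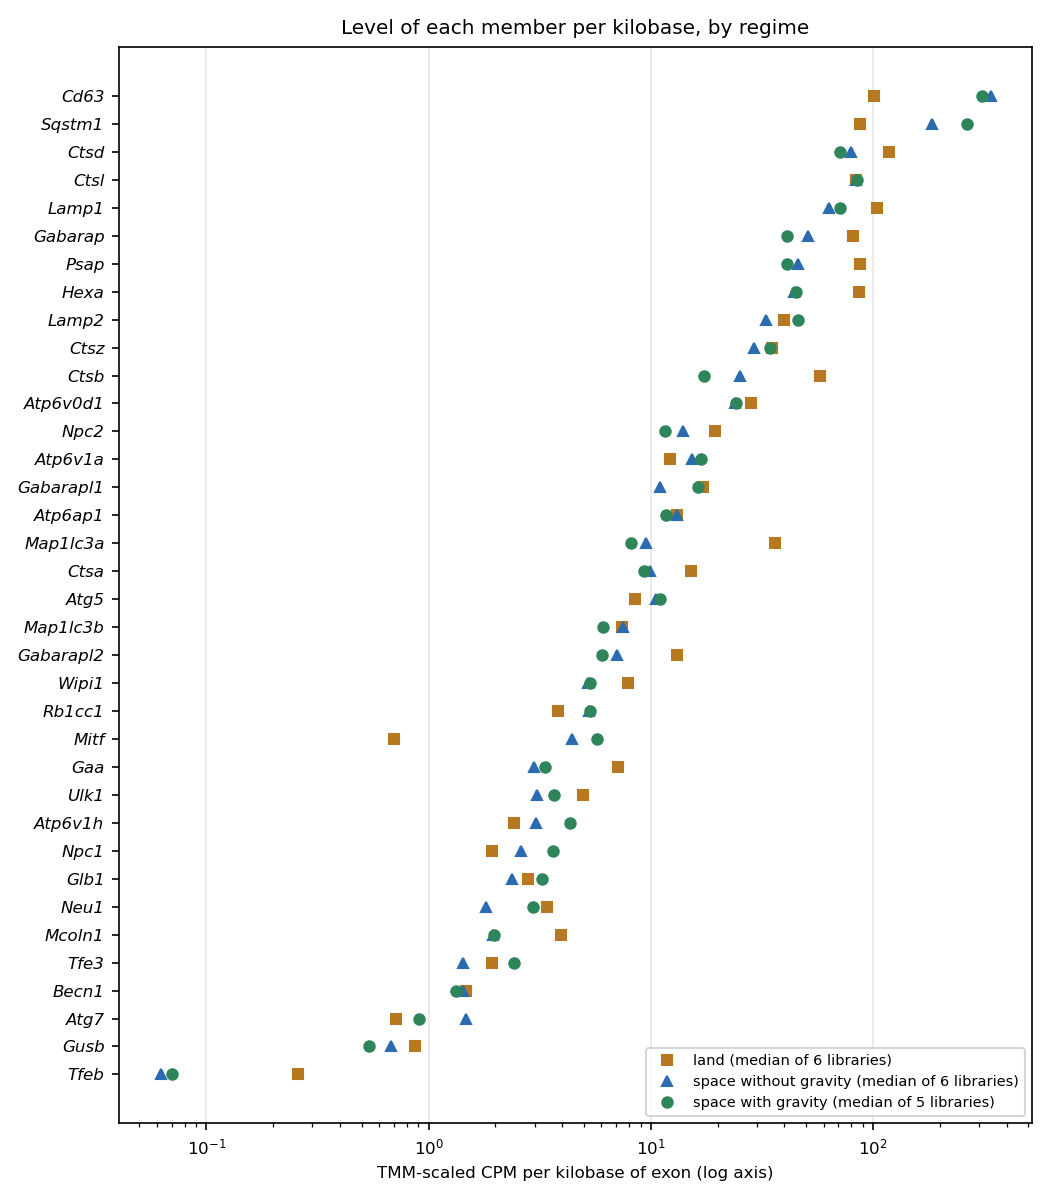
Median level of each of the 36 members per kilobase of exon (TMM-scaled CPM, log axis) in land (squares, 6 libraries), space without gravity (triangles, 6) and space with gravity (circles, 5, without the smallest library). The symbols of most members lie close together, while Mitf lies at 0.700 on land and at 4.44 and 5.74 in the space regimes, and Map1lc3a at 36.3 on land and at 9.53 and 8.13.

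Space with gravity was set against land, averaged over both nanoceria levels, to ask how the set differed between flight and ground when the gravity label was alike. Mitf and Cd63 were higher in space, and the protease Ctsb, the hexosaminidase subunit Hexa and the ATG8 genes Map1lc3a and Gabarapl2 were lower. These 6 of 36 members passed the adjusted threshold of 0.05 in edgeR's quasi-likelihood test, beside 14% of all genes tested (7.22% higher, 6.74% lower), so the share of members was near the background. At an unadjusted p under 0.05 there were 11 of 36, beside 31.9% of all genes. The median log2 fold change of the members was −0.44, with 11 above and 25 below 0, against a median of −0.04 over all genes. Across genes, which are not independent replicates, the fold change rose with exon length, with a Spearman rho of 0.21 over the 11558 genes and 0.28 over the members. The mitochondrial share of counts outside the 6 most abundant genes had a median of 1.02% on land and 0.23% in space with gravity without the smallest library. The part of either in the result was not tested. In bulk RNA, fewer cells of a type and less RNA per cell cannot be told apart.

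The share of counts in the 6 most abundant genes moved with this comparison (median 66.9% on land and 38.9% in space with gravity without the smallest library). With the log2 ratio of those genes to all others as a covariate, 0 members passed, beside 1 of all 11558 genes. The members' median was then 0.20, with 22 above 0, against −0.005 over all genes. The balance of the members towards lower values thus depended on that term. Mitf was estimated at 3.12 ± 1.03 (SE) in that fit and Map1lc3a at −1.88 ± 0.85, close to their values without it, whereas Ctsb moved from −1.73 to −0.85 and the saposin precursor Psap from −1.21 to −0.03. Scaling by DESeq2 size factors in place of TMM moved the median of all genes to −0.39 and the split of called genes from 834 higher and 779 lower to 628 and 1558. The members called then numbered 1 higher and 7 lower, with a member median of −0.80.

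**Figure D2:**
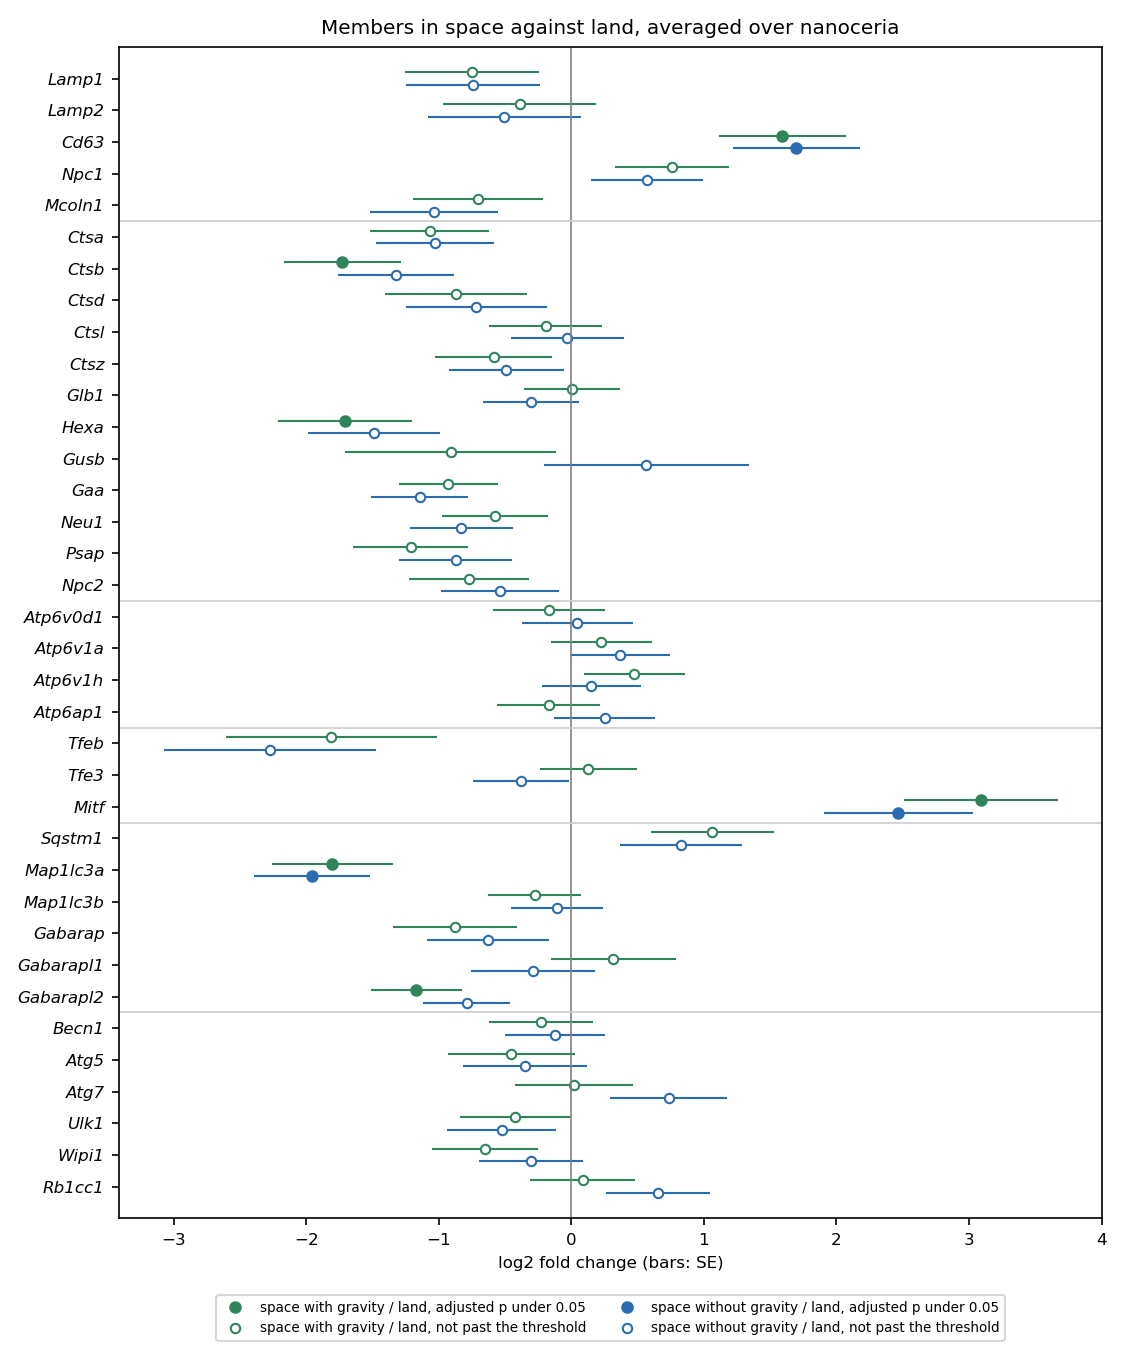
Log2 fold change of each member in space with gravity (green) and space without gravity (blue) against land, averaged over nanoceria. Points are estimates and bars standard errors, filled where the adjusted p is under 0.05: Mitf, Cd63 and Map1lc3a are filled in both colours, and Ctsb, Hexa and Gabarapl2 in green. Both colours share the 6 land libraries.

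Among the transcription factors, Mitf, which also directs pigment cell genes, had the largest estimate of the 36 members. On land its 6 libraries read 5.20, 4.60 and 2.63 CPM without nanoceria and 4.07, 2.60 and 5.21 with it. The libraries of space with gravity gave 24.6, 51.8 and 35.6 CPM without nanoceria, then 27.1, 47.7 and, from 1 count in the smallest library, 11.9 with nanoceria. This gene lies at chr6:97807052-98021349 (GRCm38, as are all gene positions here). None of the 5 larger libraries overlapped with land, and 1 count cannot place the smallest. On the log2 scale Mitf rose by 3.09, with an SE of 0.58 (edgeR adjusted p = 0.00629), an 8.52-fold difference, and it was called in all 18 fits that left out a library.

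Without gravity, 4 libraries held Mitf at 25.3, 29.8, 37.7 and 35.5 CPM and 2 held it near the land level. Those 2 were replicate 2 of each nanoceria level, at 3.36 and 4.45 CPM from 20 and 12 counts. They had the highest shares of the 6 most abundant genes in that regime, 69.1% and 58.0%. The space with gravity library with 55.7% held Mitf at 47.7 CPM, and the land library with 54.3% held it at 2.63 CPM. Why the 2 libraries lay low was not tested. The Mitf difference of space without gravity from land was 2.47 ± 0.56 (edgeR adjusted p = 0.0232). With the ratio of the 6 most abundant genes as a covariate it was 2.48 ± 0.81 and was no longer called, beside 2 of all 11558 genes called. Mitf was called in 11 of the 18 fits that left out a library.

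Tfe3, a broadly expressed member of the family, did not pass. It read 10.4, 12.1 and 13.2 CPM in space without gravity and nanoceria and 13.4, 16.7 and 16.8 with nanoceria. With gravity in space it gave 17.1, 22.4 and 13.2 without nanoceria, then 25.7, 25.7 and 0 (smallest library) with nanoceria, and on land 19.0, 12.8 and 25.6 without and 13.7, 17.8 and 17.9 with it. All regimes overlapped, and the difference between space with gravity and land was 0.13 ± 0.37 (adjusted p = 0.848). Per kilobase, Mitf stood above Tfe3 in 5 of 5 space with gravity libraries and 4 of 6 without gravity, and in 0 of 6 on land, where the ratio had a median of 0.422. Tfeb, a regulator of lysosome formation, stood between 0.40 and 3.94 CPM on land and between 0 and 1.29 in the 11 space libraries. Its difference of −1.81 ± 0.80 in space with gravity was not past the threshold (adjusted p = 0.127).

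**Figure D3:**
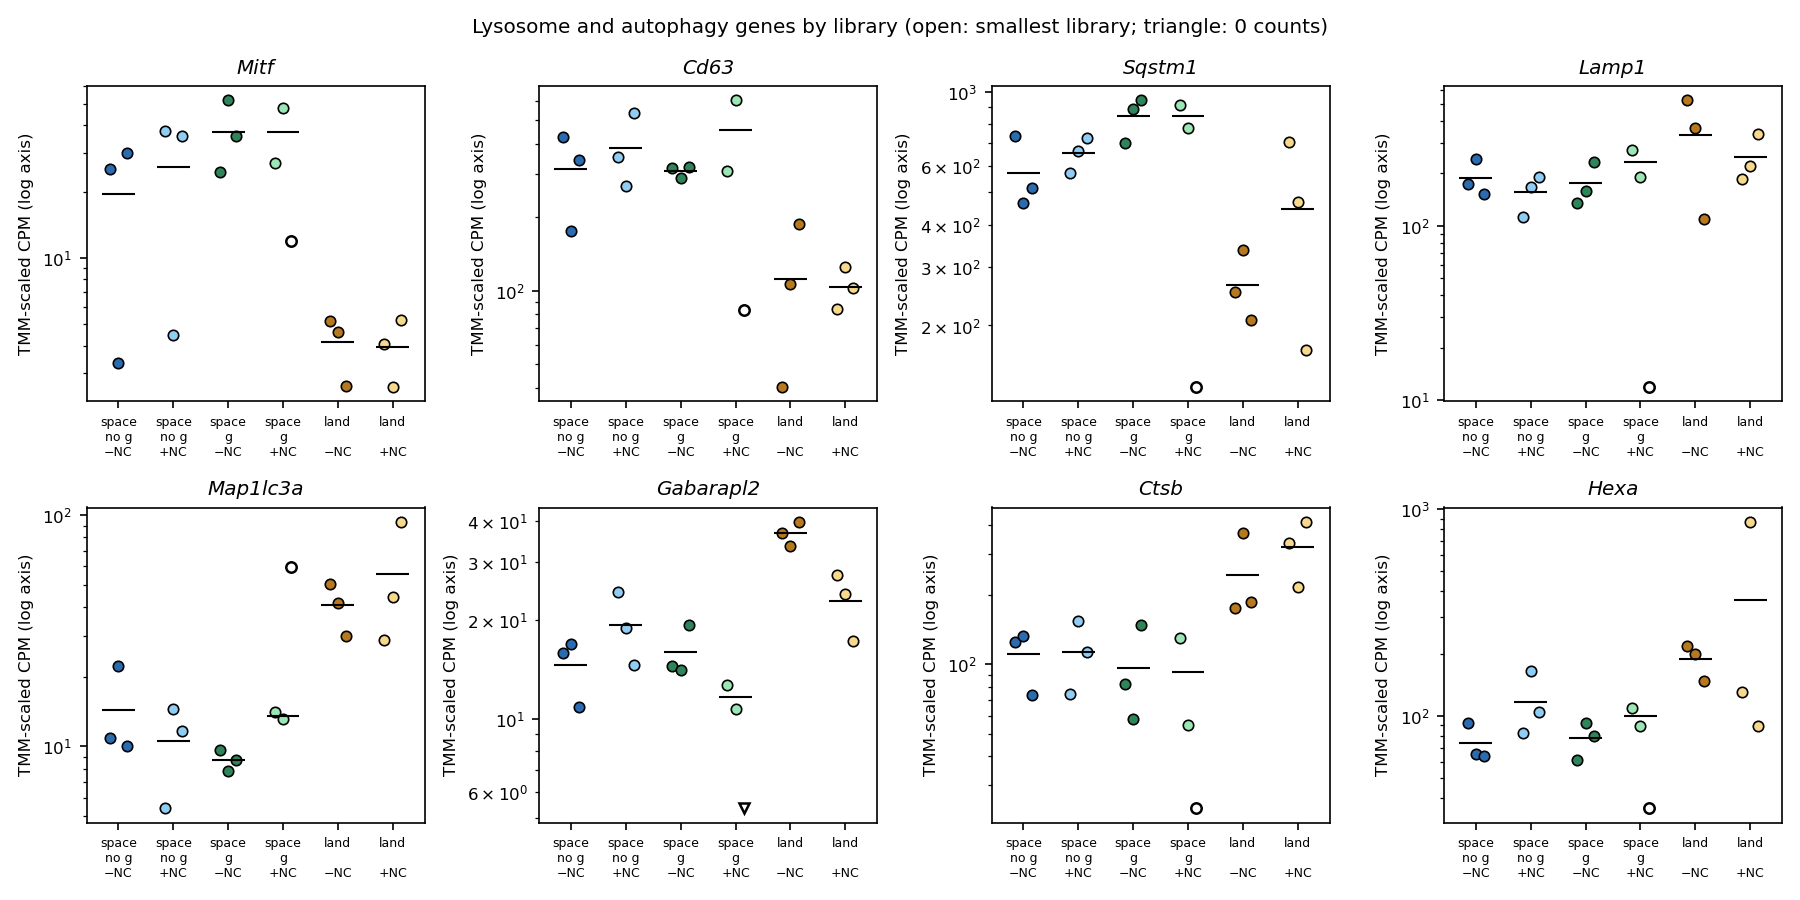
TMM-scaled CPM (log axis, own range in each panel) of 8 members in every library of the 6 groups: NC is nanoceria, g gravity, bars are group means without the smallest library, the open symbol is the smallest library and a triangle marks 0 counts. In the larger libraries Mitf and Cd63 lie higher in space with gravity than on land, Map1lc3a and Ctsb lower, and 1 land library stands apart in Hexa at 869 CPM.

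Of the 5 membrane genes, Cd63 passed and 4 did not. On land Cd63 (chr10:128908919-128912816) read 40.3, 106 and 188 CPM without nanoceria and 84.0, 125 and 103 with it. Under space with gravity the readings were 319, 289 and 323 without nanoceria, then 309, 604 and, in the smallest library, 83.4 with nanoceria. Apart from the smallest library, all values of that regime lay above every land library. The rise was 1.59 ± 0.48 on the log2 scale (3.01-fold, adjusted p = 0.0358). It was called in 7 of the 18 fits that left out a library, was 1.28 and not called under DESeq2 size factors, and was 1.25 without space with gravity and nanoceria replicate 2, the library with 604 CPM. In space without gravity Cd63 read 425, 177 and 345 CPM without nanoceria and 352, 269.5 and 536 with it. The library at 177 CPM lay below the highest land library, at 188. The difference from land was 1.70 ± 0.48 (edgeR adjusted p = 0.0484) and was called in 4 of the 18 fits that left out a library. A processed copy named Cd63-ps held 770 counts over all libraries against 31836 for Cd63, so some Cd63 reads may be divided between them.

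Lamp1 was not past the threshold. It read 526, 364 and 109 CPM on land without nanoceria and 185, 221 and 338 with it. The readings were 136, 159 and 232 in space with gravity without nanoceria, then 274, 191 and 11.9 (smallest library) with nanoceria, and in space without gravity 173, 242 and 152 without and 112, 166 and 191 with it. Land libraries spanned the whole range seen in the larger space libraries, and the difference between space with gravity and land was −0.75 ± 0.51 (adjusted p = 0.324). Lamp2, its partner in the membrane, stood at −0.39 ± 0.58, the cholesterol transporter Npc1 at 0.76 ± 0.43 and the calcium channel Mcoln1 at −0.70 ± 0.49.

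The hydrolases and other lumenal proteins lay mostly below land. For space with gravity 11 of 12 had negative estimates, with a median of −0.89, and 2 passed. Under DESeq2 size factors 12 of 12 were negative and 5 passed, beside 1558 of 11558 genes called lower and a median of −0.39 over all genes. With the ratio of the most abundant genes as a covariate 8 of 12 were negative, with a median of −0.05. None was then past the threshold, beside 1 of all 11558 genes.

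Ctsb (chr14:63122462-63145919), cathepsin B, a cysteine protease, was separated from land in the larger libraries. Its land libraries read 176, 372 and 185 CPM without nanoceria and 334, 216 and 414 with it. Space with gravity gave 82.3, 57.8 and 148 CPM without nanoceria and 130.5, 54.7 and 23.8 (smallest library) with it, and space without gravity gave 126, 132 and 74.0 without and 74.2, 154 and 113 with it. All 11 larger space libraries lay below every land library, and 2 counts cannot place the smallest. Ctsb fell by 1.73 ± 0.44 on the log2 scale in space with gravity (3.31-fold, adjusted p = 0.0188). In space without gravity the estimate was −1.32 ± 0.43, not past the threshold (adjusted p = 0.0755). It shares 767 of 4739 exonic bases with Fdft1 on the other strand, and the use of strand in counting was not stated, but Fdft1 held 721 counts over all libraries against 14778.

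Hexa (chr9:59539540-59565109), the alpha subunit of beta-hexosaminidase, depended on 1 library. It read 218, 199 and 148 CPM on land without nanoceria and 131, 869 and 89.8 with it. Libraries of space with gravity gave 61.4, 92.7 and 80.2 without nanoceria, then 109, 89.6 and 35.7 (smallest library) with nanoceria, and those of space without gravity 92.9, 65.8 and 64.0 without and 82.5, 165 and 104 with it. Space with gravity overlapped with land at the land value of 89.8, and space without gravity also at 131 and 148. The fall of 1.71 ± 0.51 (adjusted p = 0.0333) became −0.82 and was no longer called without land with nanoceria replicate 2, which held 4336 of the 15048 Hexa counts. Over the 18 fits that each left out a library, Hexa was called in 9.

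The other lumenal genes were not past the threshold in space with gravity. Psap was at −1.21 ± 0.43 (adjusted p = 0.0663), the glycogen-degrading Gaa at −0.93 ± 0.37 (0.0989) and the protective carboxypeptidase Ctsa at −1.07 ± 0.45 (0.113). In the 5 larger libraries of space with gravity Psap spanned 73.0 to 149 CPM, against 126 to 269 on land, and Gaa 15.1 to 20.4, against 10.2 to 58.9. The smallest library held each at 11.9 CPM, from 1 count. Ctsd stood at −0.87 ± 0.54, the cholesterol carrier Npc2 at −0.77 ± 0.45, the sialidase Neu1 at −0.58 ± 0.40 and the peptidase Ctsz at −0.59 ± 0.44. Ctsl, at −0.19 ± 0.43, and the galactosidase Glb1, at 0.01 ± 0.36, lay nearest to 0, and Gusb was at −0.91 ± 0.80.

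The 4 proton pump genes stood near 0 and none passed. Atp6v1h, a regulatory subunit, had the smallest p of them and is described with nanoceria. Its difference in space with gravity was 0.48 ± 0.38 (adjusted p = 0.410), that of the catalytic subunit Atp6v1a 0.22 ± 0.38, of the membrane-sector subunit Atp6v0d1 −0.17 ± 0.42 and of the accessory Atp6ap1 −0.17 ± 0.39. A further 12 subunits that could be tested included 0 past the threshold, 7 above and 5 below 0.

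Of the 6 receptor and ATG8 genes 2 passed, both lower. Map1lc3a (chr2:155276297-155278073) read 50.3, 41.7 and 29.9 CPM on land without nanoceria and 28.9, 44.1 and 93.4 with it. Space with gravity gave 9.61, 7.82 and 8.73 without nanoceria, then 14.0, 13.1 and, from 5 counts in the smallest library, 59.6 with nanoceria. Space without gravity gave 10.8, 22.1 and 9.98 without nanoceria, then 5.39, 14.5 and 11.7 with nanoceria. Apart from the smallest library, all space libraries lay below all land libraries. Map1lc3a fell by 1.80 ± 0.46 on the log2 scale in space with gravity (3.49-fold, adjusted p = 0.0181) and by 1.96 ± 0.44 in space without gravity (3.88-fold, adjusted p = 0.0216).

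Its paralog Map1lc3b, the usual marker of autophagosomes, spanned 37.5 to 82.9 CPM on land and 37.4 to 72.5 in the 11 space libraries, with a difference of −0.28 ± 0.35 in space with gravity (adjusted p = 0.622). Per kilobase, the ratio of Map1lc3a to Map1lc3b had a median of 4.90 on land, 1.29 in space with gravity and 1.42 in space without gravity. Ranges of that ratio were 2.24 to 14.7 on land and 0.863 to 2.13 over both space regimes, without overlap. The smallest library was left out of the ratio: its 5 counts of Map1lc3a and 2 of Map1lc3b cannot place it. The ratio is not separate support, as it holds the Map1lc3a values already described. The ratio depends on the exon lengths used, 1181 bases for Map1lc3a and 7517 for Map1lc3b. Before division by length the land medians were 42.9 CPM for Map1lc3a and 56.1 for Map1lc3b.

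Gabarapl2 (chr8:111940703-111953612) read 36.8, 33.5 and 39.8 CPM on land without nanoceria and 27.4, 24.0 and 17.3 with it. It read 14.4, 14.1 and 19.3 in space with gravity without nanoceria, then 12.7, 10.7 and 0 (smallest library) with nanoceria. The libraries without gravity held 15.8, 16.9 and 10.9 without nanoceria, then 24.3, 18.9 and 14.6 with nanoceria. Space with gravity overlapped with land at the land value of 17.3 CPM, and space without gravity also at 24.0. Gabarapl2 fell by 1.17 ± 0.34 in space with gravity (2.25-fold, adjusted p = 0.0315) and was called in 7 of 18 fits without a library. Gabarap was at −0.88 ± 0.47 and Gabarapl1 at 0.32 ± 0.47.

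Sqstm1, the p62 receptor that ties cargo to ATG8 proteins, is described library by library because of its level, a choice made after its values were seen. It read 251, 336 and 207 CPM on land without nanoceria and 706, 466 and 169 with it. Space with gravity gave 701, 887 and 942 without nanoceria, then 912, 778 and 131 (smallest library) with nanoceria, and space without gravity 739, 465 and 514 without and 572, 663 and 726 with it. A single land library, with nanoceria, reached the values of space with gravity. The difference of 1.06 ± 0.46 was not past the threshold (adjusted p = 0.123).

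None of the 6 genes of initiation and conjugation passed in either comparison with land. Wipi1, a phosphoinositide-binding protein of the forming autophagosome, read 46.9, 38.9 and 27.3 CPM on land without nanoceria and 10.4, 31.3 and 38.7 with it. Space with gravity gave 23.7, 26.2 and 19.3 without nanoceria, then 18.4, 23.6 and 0 (smallest library) with nanoceria, and space without gravity 21.7, 35.1 and 21.7 without and 31.0, 24.5 and 20.5 with it. Its lowest value outside the smallest library was on land, and its difference was −0.65 ± 0.40 (adjusted p = 0.277). The kinase Ulk1 stood at −0.42 ± 0.42, Atg5, which forms part of the lipid-conjugating complex, at −0.45 ± 0.48, the lipid kinase subunit Becn1 at −0.23 ± 0.39, the scaffold Rb1cc1 at 0.09 ± 0.40 and Atg7 at 0.02 ± 0.45.

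**Figure D4:**
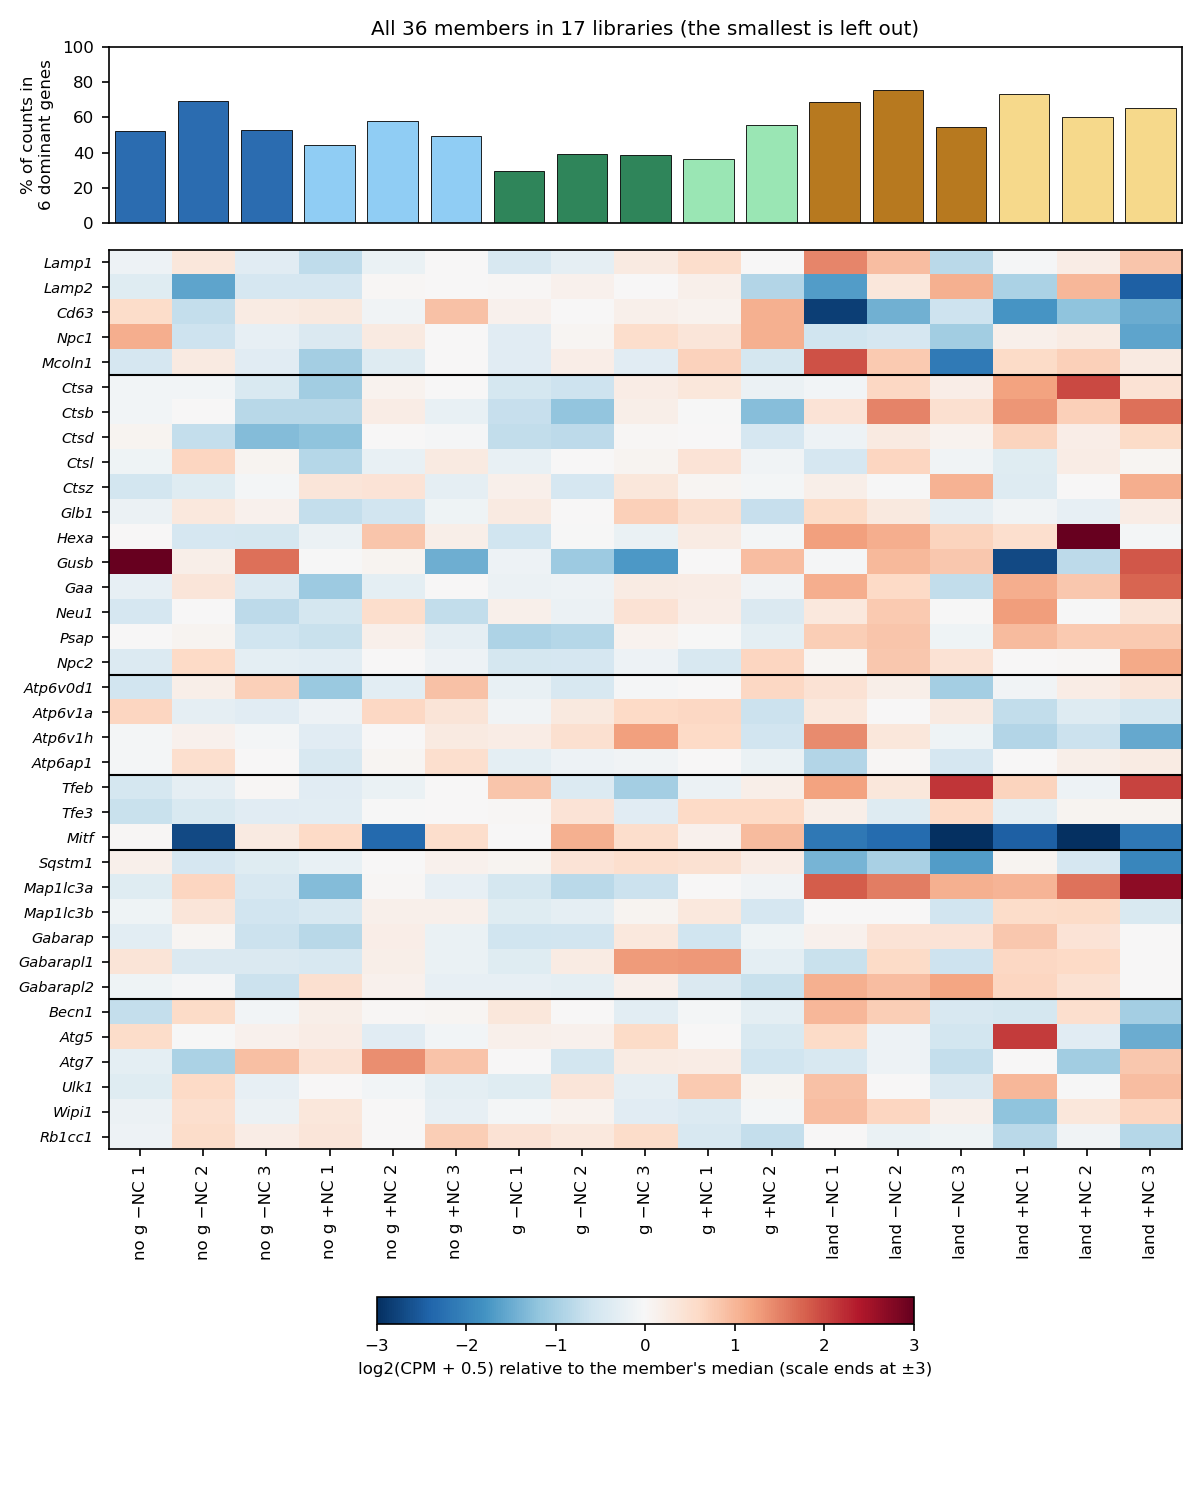
Log2(CPM + 0.5) of the 36 members in 17 libraries, each relative to the member's own median (colour, ends at ±3), below bars of the percentage of counts in the 6 most abundant genes. Rows are ordered by role; Mitf is low in all 6 land libraries and in replicate 2 of both groups without gravity, and Map1lc3a is high in all 6 land libraries, where the bars span 54.3% to 75.7%.

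In space without gravity against land, averaged over nanoceria, 3 of 36 members passed (Mitf and Cd63 higher, Map1lc3a lower), beside 5.25% of all genes (2.81% higher, 2.44% lower). Members with an unadjusted p under 0.05 numbered 11, beside 24.7%, and the median of the members was −0.36 against −0.02 over all genes. Hexa stood at −1.49 ± 0.50 (adjusted p = 0.0808), Gaa at −1.14 ± 0.37 (0.0703), Tfeb at −2.27 ± 0.80 (0.0922) and Gabarapl2 at −0.79 ± 0.33 (0.150). This comparison and that of space with gravity share the land libraries, and their values are given side by side for that reason. Fits without 1 library called between 0 and 5 members, and 7 libraries brought the count to 0: space without gravity replicates 1 and 3 of each nanoceria level, land without nanoceria replicates 1 and 2, and land with nanoceria replicate 3. Without land without nanoceria replicate 3 it was 5. For the count of 6 in space with gravity the range was 2 to 6, with 2 called without space with gravity replicate 1 or 2 (no nanoceria), replicate 1 (nanoceria) or land without nanoceria replicate 2, and 3 called without space with gravity replicate 3 (no nanoceria), replicate 2 (nanoceria), land without nanoceria replicate 1 or land with nanoceria replicate 2.

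Libraries without overlap gave the same comparison without a model, over the 17 libraries. In space with gravity 2 members lay wholly above land (Cd63 and Mitf), beside 4.59% of all genes, and 2 wholly below (Ctsb and Map1lc3a), beside 3.24%. For space without gravity 0 members lay above and 2 below (Ctsb and Map1lc3a), beside 1.23% and 1.68%. Over all 11 space libraries the same 2 genes lay below, beside 1.12%, and 0 above, beside 0.666%. Between the space regimes 0 members were separated, beside 0.277% with every library without gravity higher and 0.381% with every one lower.

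At single nanoceria levels, with 3 libraries a group, 0 members passed in any of the 4 comparisons with land. With nanoceria, 8 members had an unadjusted p under 0.05 in space with gravity, beside 20.5% of genes, and 7 in space without gravity, beside 19.2%; genes past the adjusted threshold made up 0.00865% and 0.0433%. Without nanoceria the counts were 6 in space with gravity, beside 21.5%, and 5 in space without gravity, beside 13%, and 0% of genes passed the adjusted threshold. Mitf stood at 3.03 ± 0.83 with and 3.15 ± 0.81 without nanoceria in space with gravity, and Map1lc3a at −1.39 ± 0.68 and −2.22 ± 0.62.

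Other genes of the pathway were read from lists of 124 genes, of which 117 could be tested. Of 32 further hydrolase and enzyme-sorting genes, 4 were lower in space with gravity and 0 higher, beside 6.74% and 7.22% of all genes, with a median of −0.60. They were the sulfatase Arsa at −1.91 ± 0.43 (adjusted p = 0.0115), the sphingomyelinase Smpd1 at −1.23 ± 0.36 (0.0315), the asparaginyl protease Lgmn at −1.37 ± 0.40 (0.0319) and the mannose 6-phosphate receptor Igf2r at −2.46 ± 0.80 (0.0480), the last named after its value was seen. Over the fits that each left out a library, Arsa was called in 17 of 18, Smpd1 and Lgmn in 10 and Igf2r in 1. Igf2r stood at −1.30 without land without nanoceria replicate 3 and at −1.36 without land with nanoceria replicate 1. Lgmn read 24.9, 13.8, 16.8, 9.63, 28.4 and 11.7 CPM on land and 5.93, 6.62, 7.08, 9.98 and 5.42 in the 5 larger libraries of space with gravity, which overlapped at 1 library of each.

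Of 35 genes of autophagy machinery outside the 36, 4 were higher and 0 lower in space with gravity, beside 7.22% and 6.74% of all genes, with a median of 0.39. Under DESeq2 size factors 2 were higher and 2 lower, beside 628 and 1558 of all 11558 genes, with a median of 0.03. The calls were the ATG8-cleaving protease Atg4d at 3.20 ± 0.60 (adjusted p = 0.00656), the fusion tether Epg5 at 1.98 ± 0.47 (0.0135), the tethering-complex subunit Vps16 at 2.01 ± 0.63 (0.0432) and the receptor Nbr1 at 1.60 ± 0.52 (0.0485), the last named after its value was seen. Leaving out 1 library at a time, Atg4d was called in 18 of 18 fits, Epg5 in 17, Vps16 in 7 and Nbr1 in 2. Nbr1 stood at 0.35 without replicate 1 of space with gravity and nanoceria, which held it at 90.9 CPM. Atg4d read 3.93, 3.58, 2.96, 1.85, 3.61 and 0.65 CPM on land and 15.99, 16.4, 45.3, 27.2 and 26.9 in the larger space with gravity libraries. Epg5 also rose in space without gravity, by 1.87 ± 0.46 (adjusted p = 0.0300).

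Of 19 genes that control mTORC1 and TFEB, the kinase Mtor passed at 1.44 ± 0.38 (adjusted p = 0.0225) in space with gravity, from 2.11 to 7.81 CPM on land and 6.19 to 15.9 in the larger libraries of space with gravity, beside 7.22% of all genes called higher. Under DESeq2 size factors this list had 0 higher and 4 lower, beside 628 higher and 1558 lower of all 11558 genes. In space without gravity Lamtor4, a subunit of the lysosomal Ragulator scaffold, was lower at −1.75 ± 0.47 (edgeR adjusted p = 0.0392), beside 2.44% of all genes called lower. Of 19 genes of endocytic uptake, the clathrin light chain Clta was lower in space with gravity at −1.18 ± 0.33 (edgeR adjusted p = 0.0280), beside 6.74% of all genes. The clathrin assembly protein Picalm at 1.42 ± 0.41 (0.0312) and the caveolar coat protein Cavin1 at 2.08 ± 0.67 (0.0447) were higher, beside 7.22%. Under DESeq2 size factors 1 of this list was higher and 3 lower, beside the same 628 and 1558 of all genes. The sorting receptor Sort1 was called lower in space without gravity at −4.25 ± 1.17 (edgeR adjusted p = 0.0440), beside the same 2.44% of all genes. It rested on 0 to 5 counts there and 0 to 35 on land, so the size of its difference is uncertain. Without 1 library at a time Mtor was called in 15 of 18 fits, Clta in 11, Picalm in 10, Lamtor4 in 7, Sort1 in 6 and Cavin1 in 3.

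Withdrawal of gravity in space, averaged over nanoceria, moved no member past the threshold. Of 36 members 0 were called by edgeR, DESeq2 and limma voom, beside 0, 11 and 0 of all 11558 genes. By edgeR 0 members had an unadjusted p under 0.05, beside 5.85%. Estimates ran from −0.62 for Mitf (95% interval −1.73 to 0.48) to 1.47 for Gusb (−0.22 to 3.17), whose adjusted p of 0.902 was the smallest. For Cd63 the difference was 0.11 (−0.88 to 1.09), for Map1lc3a −0.15 (−1.10 to 0.79), for Ctsb 0.41 (−0.50 to 1.31) and for Sqstm1 −0.23 (−1.20 to 0.73). Over all members the intervals reached from −2.18 to 3.17, so these data bound a difference loosely. At single nanoceria levels 1 member had an unadjusted p under 0.05 with nanoceria (Rb1cc1), beside 5.78%, and 1 without (Gusb), beside 4.05%.

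Nanoceria, averaged over the 3 regimes, likewise left 0 of 36 members past the threshold in edgeR, in DESeq2 and in limma voom. Over all 11558 genes these called 0, 1 and 0. The count at an unadjusted p under 0.05 was 1, beside 6.54%, and the median of the members was 0.03. That member was Atp6v1h, at −0.83 ± 0.31 (95% interval −1.48 to −0.17, adjusted p = 0.752). On land it read 82.1, 38.4 and 27.9 CPM without nanoceria and 16.3, 19.2 and 10.1 with it, without overlap. Space with gravity gave 35.6, 42.4 and 71.8 without nanoceria, then 46.6, 20.2 and 11.9 (smallest library) with nanoceria, and space without gravity 29.1, 33.6 and 29.2 without and 23.9, 30.4 and 37.1 with it. Its space libraries overlapped between the nanoceria levels. On land Atp6v1a and Gabarapl2 were also without overlap. The share of all genes without overlap was not counted, so no weight is put on these separations, that of Atp6v1h included. The Atp6v1h difference on land alone was −1.70 ± 0.55 (edgeR adjusted p = 0.330). It was the 1 member there with an unadjusted p under 0.05, beside 10.2% of genes.

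Rb1cc1, the scaffold of the ULK1 kinase complex, had the next smallest p, at −0.55 ± 0.32 (adjusted p = 0.779). It read 63.1, 55.0 and 57.2 CPM on land without nanoceria and 35.5, 58.9 and 34.5 with it. Space with gravity gave 85.9, 78.3 and 92.4 without nanoceria, then 45.3, 38.1 and 0 (smallest library) with nanoceria, and space without gravity 56.8, 92.8 and 74.0 without and 81.4, 63.8 and 106 with it. Only in space with gravity were its nanoceria levels apart. There Map1lc3a, Gabarapl2 and Atg5, among other members, were apart too, and the group with nanoceria holds the smallest library. The share of all genes apart was not counted, so no weight is put on these separations, that of Rb1cc1 included. Rb1cc1 was the 1 member there with an unadjusted p under 0.05, beside 4.46% of genes. The estimate was −1.37 ± 0.57, with an adjusted p of 1.

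Gusb, named after its values were seen, rested on 1 library. It read 47.5, 3.19 and 9.80 CPM in space without gravity and nanoceria and 2.77, 2.97 and 0.68 with nanoceria. The remaining 12 libraries held it between 0 and 11.4 CPM. It was the 1 member with an unadjusted p under 0.05 for nanoceria without gravity, beside 3.97%, and the 1 for a nanoceria effect that differed between regimes, beside 6.14%. For neither did it pass the adjusted threshold, and 0% of genes did. When genes with low counts were not filtered out, Gusb was called in both and in gravity withdrawn without nanoceria.

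Intervals for nanoceria over the other members bounded rather than excluded a difference. Mitf stood at 0.04 (95% interval −0.88 to 0.96), Cd63 at 0.11 (−0.70 to 0.91), Lamp1 at −0.26 (−1.12 to 0.61), Ctsb at 0.02 (−0.71 to 0.76), Tfe3 at 0.15 (−0.47 to 0.78) and Sqstm1 at 0.16 (−0.62 to 0.95). Hexa, at 0.56 (−0.28 to 1.41), carried the land library with 869 CPM. Of the 117 other pathway genes 0 were called for nanoceria by edgeR, beside 0% of all genes. At an unadjusted p under 0.05 there were 5, beside 6.54% of all genes, 4 with a higher and 1 with a lower estimate.

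**Figure D5:**
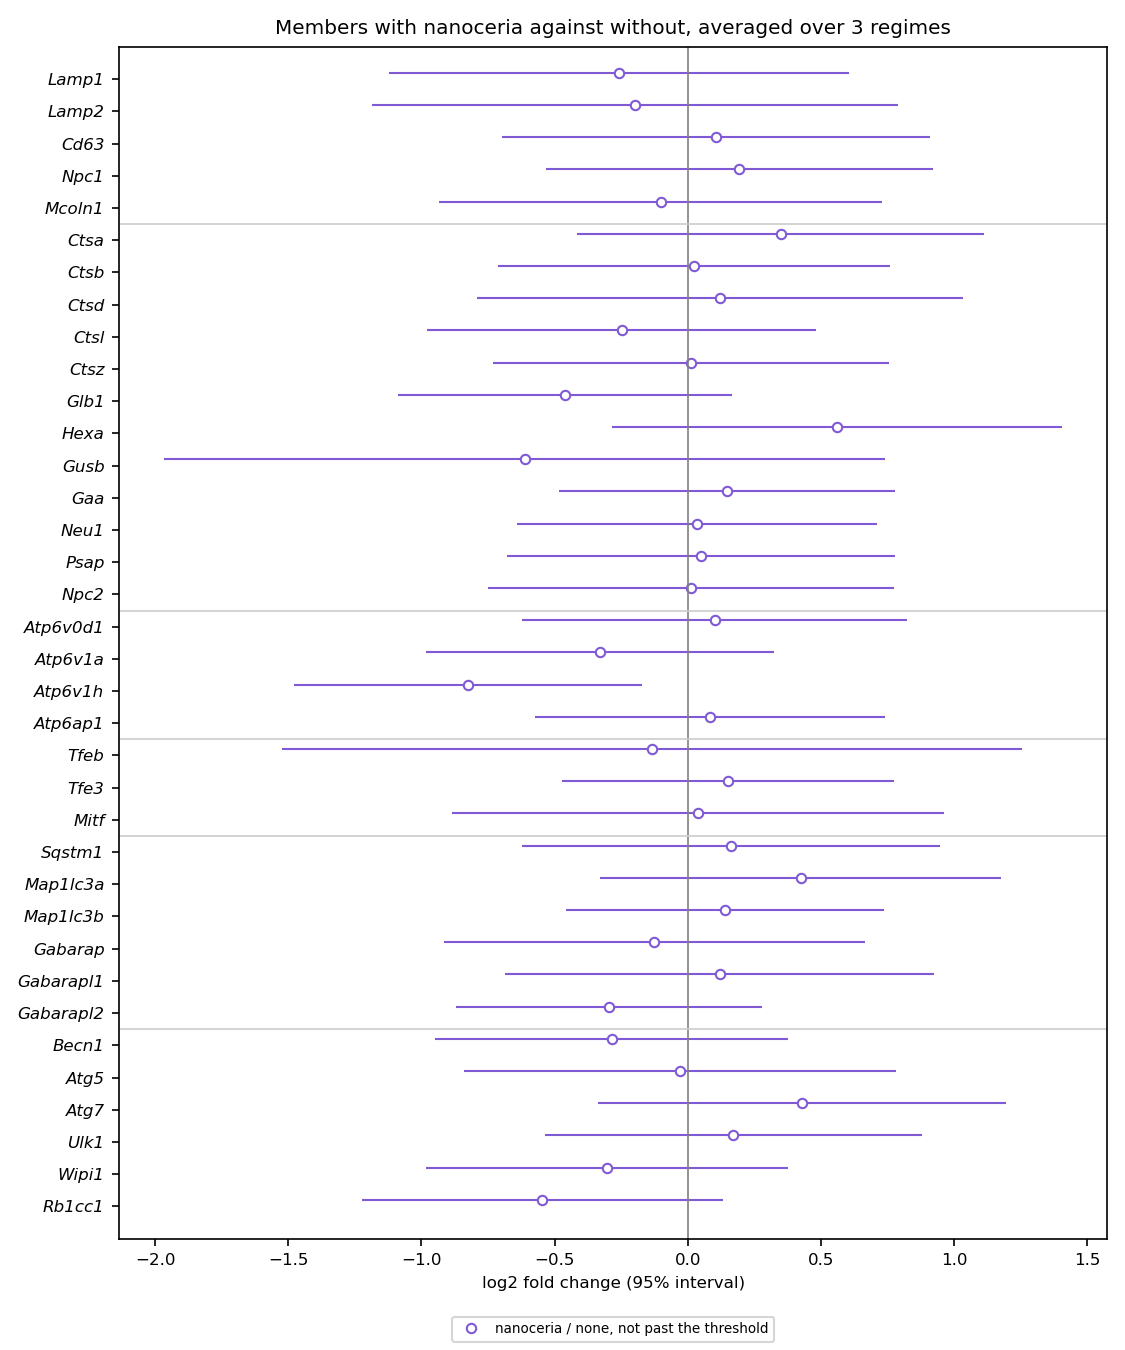
Log2 fold change of each member with nanoceria against without, averaged over the 3 regimes, with 95% intervals; members are ordered by role. All points are open because none passed the adjusted threshold, and the interval of Atp6v1h, −1.48 to −0.17, is the one that leaves out 0.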

How the data were processed

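Count tables of 18 polyadenylated RNA libraries were used; the 18 small RNA samples were not analysed here. The deposited values were raw counts per Ensembl gene, made by the authors from NEBNext Ultra libraries, per the labels' protocols; the submitters' processing notes name CASAVA, Trimmomatic 0.36.29, STAR, Subread, featureCounts and the build GRCm38.p6, with no settings. Symbols came from GENCODE M21 and matched 48970 identifiers; promoters came from RefSeq. Groups came from the labels; replicates are separate experiment units numbered in accession order. Low counts were filtered by filterByExpr with the 6 groups as design. Counts were fitted with edgeR 4.0.16 (R 4.3.3; TMM, robust quasi-likelihood) in 1 model of 6 group means with 12 residual degrees of freedom, with Benjamini-Hochberg adjustment over 11558 genes and a threshold of 0.05. Log2 fold changes carry the SE of the fit, and 95% intervals are the fit's. Depth is given in the report; counting error is 1 part of these errors only. The script was tested on simulated data. Alternatives were DESeq2 1.42.0, DESeq2 size factors in edgeR, limma 3.58.1 voom with quality weights, no filter, a mean of at least 50 counts, only the compared groups, the smallest library left out, the 6 most abundant genes removed or as a covariate, each library left out, and, chosen after the data were seen, a covariate of 6 ribosomal RNA-like genes. Members and lists were chosen with earlier results of these data known. Members past the threshold, and otherwise those with the smallest p for space with gravity against land and for nanoceria in a role group with under 2 such members, are given library by library; of other lists, up to 3 genes a direction.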

Additional observations from a re-analysis of the deposited data

How the results depend on the processing

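No paired analysis was possible because replicate numbers followed accession order and paired no libraries. Space with gravity against land gave 6 members; 12 were called by DESeq2, 2 with the compared groups only and 0 with either covariate, and 2 to 6 without 1 library. Over all 11558 genes edgeR called 1613 and DESeq2 2691; the compared groups only gave 1072 of 11106 and each covariate 1. Space without gravity against land gave 3; 5 were called with DESeq2 size factors, 10 by DESeq2, 8 by limma voom, 6 with a mean of at least 50 counts and 0 with either covariate, and 0 to 5 without 1 library. Over all genes edgeR called 607, DESeq2 size factors 813, DESeq2 1524, limma voom 989, the mean of at least 50 counts 585 of 5850, and the covariates 2 and 6. Comparisons at 1 nanoceria level gave 0. For space with gravity against land without nanoceria DESeq2 called 4, limma voom 6, the compared groups only 2 and no filter 1; with nanoceria DESeq2 called 5 and no filter 1. For space without gravity DESeq2 and limma voom each called 1 without nanoceria, and with nanoceria DESeq2 called 5 and no filter 2. No filter called 1 (Gusb) for nanoceria without gravity, for gravity withdrawn without nanoceria and for the nanoceria effect that differed between regimes. In space with gravity against land Gaa turned to 0.027 with the ribosomal RNA-like covariate, and Gabarap to 0.22 with the covariate of the most abundant genes and 0.080 with the ribosomal RNA-like one. The cause of these moves was not tested. Of 374 values of named genes under alternatives, 267 kept direction and side of the threshold, 84 lost the call, 20 gained it and 3 turned; of 684 without 1 library, 496 kept both and 188 lost the call. The ribosomal RNA-like genes held a median of 67.1% of counts on land, 49.8% in space without gravity and 33.0% in space with gravity. Low counts limit Tfeb, Gusb and Sort1.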
